A study of Arabidopsis thaliana with 36 samples.

Results

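The 150 probe sets described here were those lowest at 2 days relative to 2 and 8 hours in every treatment of a split-root experiment on Arabidopsis thaliana. They were chosen by the measured signals. For each treatment the lower of the 2-hour and 8-hour group means minus the 2-day mean, on the log2(signal + 16) scale, gave a fall. Probe sets were ranked by the smallest of their 4 falls, and the 150 highest of 16091 ranked were kept. The annotation pairs 69 of them with 1 gene and 5 with several genes, and lists no gene for 76. RNA came from roots of the Columbia ecotype, and each plant carried a pair of main roots, left after its primary root had been cut. Growth medium for all plants held 0.5 mM ammonium succinate, 0.1 mM KNO3 and 3 mM sucrose, and plants 12 to 14 days old moved to segmented plates with 0.3 mM sucrose. On uniform plates both compartments held 5 mM KNO3 (C.NO3) or both held 5 mM KCl (C.KCl). On split plates one compartment held 5 mM KNO3 (roots called Sp.NO3) and the other 5 mM KCl (roots called Sp.KCl). Each of these 4 treatments was sampled after 2 hours, 8 hours and 2 days, with 3 biological repeats per group, so that 36 arrays form 12 groups. The labels do not say how many plants went into a repeat, and no untransferred roots were analysed here. For the KCl samples, titles and characteristics contradict each other as to which plates were uniform. The titles were followed. Exchanging C.KCl and Sp.KCl cannot change the 150 members, because the rule takes the smallest of the 4 falls whatever the treatment is called.

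Nitrate is both a nutrient and a signal for roots, and in a split-root plate a root responds to the salt around it and to signals from the rest of the plant. Several families appear among the members. Major latex proteins are small proteins with a Bet v 1 fold, whose hydrophobic pocket can bind lipids and hormones. Berberine bridge enzyme-like proteins are flavin-dependent oxidases of the cell wall and vesicles that act on alcohols, sugars or indolic compounds, several of them in defence. The core hypoxia response is a set of genes that cells in many plant tissues switch on when oxygen is short.

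In all 4 treatments these RNAs were lower at 2 days than at 2 and 8 hours, while between the early times single members differed in either direction. The median over members of log2(signal + 16) lay between 8.94 and 9.45 on the 12 arrays of 2 hours and between 8.92 and 9.46 on those of 8 hours. It lay between 6.63 and 7.19 on the 12 arrays of 2 days, so the early and late arrays did not overlap. Members at 2 days differed from the mean of 2 and 8 hours by a median log2 of -2.15, a ratio of 4.44, with ratios from 2.50 to 38.6. The ratio was 8 or more in 26 members and 4 or more in 98. In 126 of the 150, all 24 early arrays lay above all 12 at 2 days, as in 3.23% of all probe sets ranked. All 150 passed the threshold for being lower at 2 days (limma, adjusted p below 0.05), as did 31.8% of all probe sets, while 33.4% of all were higher. These values describe the choice and carry no test, since the rule used the same contrasts. The pseudocount of 16 makes ratios of dim probe sets smaller than the ratios of their signals. At 2 days the mean signal was below 16 in 12 members and below 69 in 55, and it was 1000 or more in 7.

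**Figure D1:**
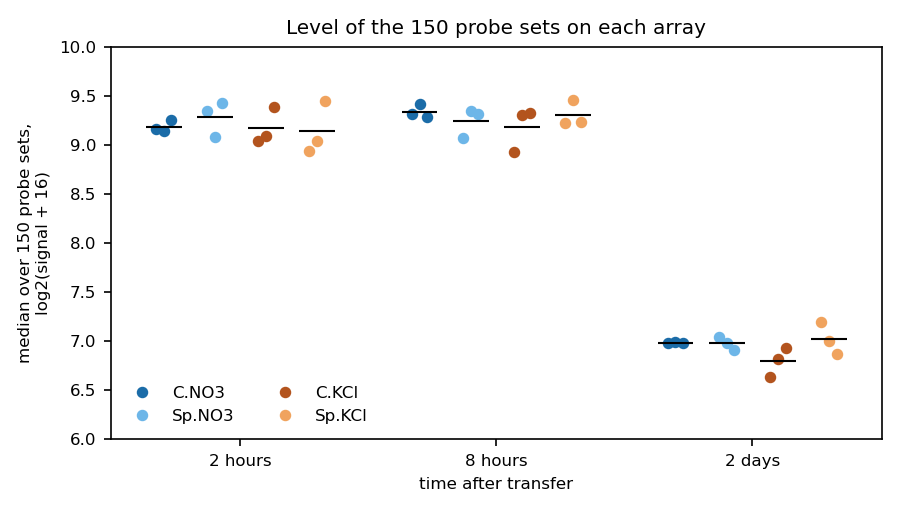
Median over the 150 probe sets of log2(signal + 16) on each of 36 arrays (points), by time after transfer and treatment, with the mean of 3 arrays as a bar. Arrays of 2 and 8 hours sit between 8.92 and 9.46 and arrays of 2 days between 6.63 and 7.19.

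The arrays themselves were alike in overall level. Median signals of single arrays ranged from 193 to 221. Over all probe sets the correlation of repeats within a group was 0.961 to 0.987. A 3′–5′ index, the mean log2 ratio of 3′ over 5′ control probe sets for Actin, GAPDH and ubiquitin, reports RNA and labelling quality. It averaged 1.35 ± 0.187 (SD, n = 12) at 2 hours, 1.25 ± 0.182 at 8 hours and 1.71 ± 0.0938 at 2 days, and thus was highest when the members were lowest. With the index as a covariate the members' median difference was -1.94 in place of -2.15. That fit takes the effect of the index from its spread within groups, so it cannot tell RNA quality apart from time. Of markers for root hairs, EXPA7 and EXPA18 had probe sets, and both were higher at 2 days, by 0.54 ± 0.05 and 0.60 ± 0.07 (SE). Their summed signal ranged from 2017 to 2888 at 2 hours, from 1375 to 2131 at 8 hours and from 2335 to 3382 at 2 days. Of shoot markers RCA and LHCB4.2 had probe sets, with a summed signal of 287 to 802, 215 to 642 and 242 to 565 at the 3 times. No probe set was listed for the marker lists of endodermis, suberin, xylem, phloem and root cap, so these cell types were not followed. RCA was lower at 2 days by a log2 difference of -0.33 ± 0.12 (SE, limma adjusted p = 0.0175), and LHCB4.2 differed by -0.15 ± 0.23 (0.563). Of 9 markers of dividing cells AUR1 had a probe set, and it was higher at 2 days by 0.33 ± 0.05 (limma adjusted p = 6.88e-07), with a signal of 482 to 621, 412 to 587 and 610 to 801 at the 3 times. The part of these cell types in the members' values was not tested. In whole roots, fewer cells of a type and less RNA per cell cannot be told apart.

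Of the major latex protein family, 10 genes were tested and 5 are members. AT4G14060 had signals of 912.5 to 2889 (median 1804) at 2 hours, 1696 to 2743 (2144) at 8 hours and 47.9 to 219 (80.0) at 2 days. Every late array lay below every early one, and the difference was -4.16 ± 0.16 on the log2 scale (SE, n = 12 against 24). AT1G70880 had 305 to 879 (641), 592 to 1321 (1054) and 16.03 to 76.6 (45.6), a difference of -3.68 ± 0.13. The neighbouring genes AT4G23670 and AT4G23680 differed in size. AT4G23680 went from 5133 to 6594 (5749) at 2 hours to 2907 to 4274 (3469) at 8 hours and 571 to 1548 (932) at 2 days, so its groups separate at every step. AT4G23670 stayed at 11288 to 13628 (11764) and 10711 to 13461 (12378) and was 2369 to 5971 (4166) at 2 days, a difference of -1.54 ± 0.08. AT3G26460, named after its values were seen, had a difference of -1.96 ± 0.09. Among the 5 tested genes of the family that are not members, 3 were lower and 1 was higher at 2 days, with a median of -0.43. The list was drawn up after the members were known, and the members in it are lower by the selection itself.

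Berberine bridge enzyme-like oxidases gave another 5 members, 4 of them in a run of close neighbours on chromosome 1. AT1G26380, whose product is known for its part in making an indolic cyanogenic defence compound, had signals of 286 to 847 (median 441) at 2 hours, 541 to 1957 (1086) at 8 hours and 8.50 to 275 (92.3) at 2 days. It was higher at 8 than at 2 hours by a mean log2 of 1.18, and all late arrays were below all early ones. AT1G26410 had 140 to 520 (219), 179 to 592 (320) and 2.15 to 63.3 (20.6), a ratio of 7.92. AT1G26390 and AT1G26420, named after their values were seen, had ratios of 4.02 and 3.35. In the RefSeq annotation (assembly TAIR10.1), AT1G26380 and AT1G26390 have no gene between them, nor have AT1G26410 and AT1G26420, and 1 gene lies between the pairs. AT5G44400, on chromosome 5, had 134 to 1132 (345), 114 to 891 (344) and 5.60 to 45.8 (19.1). Its ratio of 10.4 exceeded those of the other 4. Of the 9 tested genes of the oxidase family that are not members, 7 were lower and 1 was higher at 2 days, with a median of -0.54. Whether a probe set of 1 of these similar neighbours also reads another was not tested, so their values may not be separate.

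Among 24 core hypoxia genes 8 were tested and 3 are members. AT1G19530 had signals of 237 to 1124 (median 455) at 2 hours and 252 to 1083 (576) at 8 hours. At 2 days 3 C.NO3 arrays read 1.89, 1.32 and 1.28, and 3 Sp.NO3 arrays 17.2, 3.32 and 3.76. The C.KCl arrays read 1.90, 43.2 and 46.0 and the Sp.KCl arrays 11.6, 52.9 and 3.72. All 12 were below every early array, and the difference was -4.29 ± 0.22 on the log2 scale. AT3G10020 had 360 to 1033 (665), 305 to 1213 (692) and 86.5 to 224 (124), and its 4 falls lay close together, from 2.04 to 2.21. AT1G33055, named after its values were seen, had 119 to 504 (240), 139 to 281 (190) and 11.9 to 89.1 (51.5). Of the 5 tested genes that are not members, 3 were lower at 2 days and 2 did not pass in either direction, and those 3 included CML38, a calmodulin-like protein, at -1.46 ± 0.21. As with the other family lists, the genes were listed after the members were known.

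**Figure D2:**
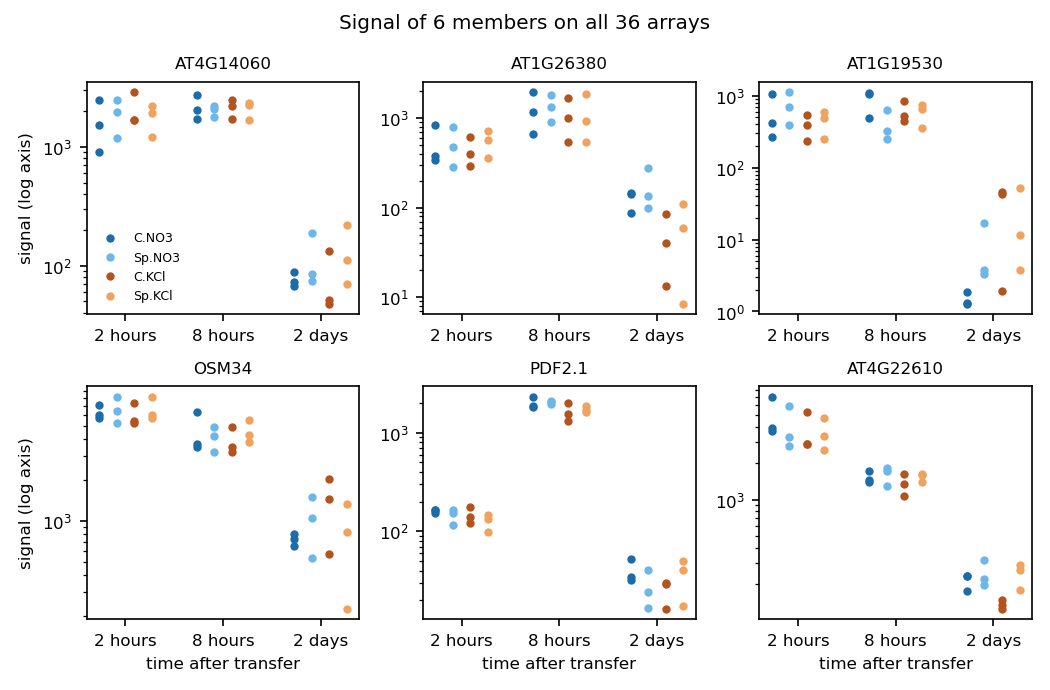
Signal on a log axis of 6 members on all 36 arrays by time after transfer, with 3 points per treatment (AT4G14060, a major latex protein; AT1G26380, a berberine bridge enzyme-like oxidase; AT1G19530, a hypoxia gene; OSM34, osmotin; PDF2.1, a defensin; AT4G22610, a lipid-transfer-type protein). Every 2-day point lies below every earlier point in each panel, and PDF2.1 is the gene with the high points at 8 hours.

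A further 8 members encode small proteins known from defence or lipid binding, and they were put side by side here for those roles, not taken from a list. PDF2.1, a plant defensin, changed most between the early times. It had 99.0 to 177 (median 150) at 2 hours, 1307 to 2310 (1853) at 8 hours and 16.5 to 52.5 (31.2) at 2 days. None of the 3 ranges overlap, and its 2-day arrays lay below those of 2 hours as well. AT2G43550, a defensin-like protein, had 433 to 657 (546), 615 to 1041 (954) and 145 to 328 (175). OSM34, osmotin, an antifungal protein of the thaumatin family, had 5183 to 8115 (5981), 3174 to 6340 (3984) and 227 to 2039 (809). AT4G22610, of the protease inhibitor, seed storage and lipid transfer family, was lower at each step, from 2550 to 7048 (3546) to 1064 to 1817 (1531) and 126 to 320 (209). AT4G12500, of the same family, had 105 to 493 (170), 208 to 618 (291) and 3.73 to 25.8 (11.4). AT5G01870, a lipid transfer protein, had 3946 to 6399 (4854), 3638 to 6906 (4635) and 585 to 1778 (948). AT3G16530, a legume lectin-like protein, had 192 to 739 (463), 219 to 745 (495) and 4.68 to 36.2 (10.9), a ratio of 15.7. AT1G78780, a pathogenesis-related family protein, had 762 to 1043 (957), 533 to 891 (728) and 78.1 to 192 (99.7). In each of these 8 genes all late arrays were below all early arrays. Of 10 tested defence proteins found by words in their gene symbols, 2 are members, and among the other 8 there were 3 lower and 2 higher at 2 days, with a median of 0.10.

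Enzymes of phenylpropanoid, hormone and glycoside metabolism were also present. CCOAMT, a caffeoyl-CoA O-methyltransferase-type enzyme of lignin precursor synthesis, had 440 to 793 (median 501), 363 to 1390 (622) and 57.7 to 111 (89.5), and its falls in the 4 treatments were all between 2.39 and 2.63. AT1G12010, an ACC oxidase that makes ethylene, had 1123 to 2270 (1921), 1008 to 2331 (1843) and 213 to 516 (405). UGT78D1, which adds rhamnose to flavonols, ranged widely, with 109 to 752 (254), 73.3 to 421 (226) and 12.5 to 147 (57.1), and its late arrays overlapped the early ones. BGLU44, a beta-glucosidase, had 223 to 447 (407), 209 to 487 (344) and 42.8 to 115 (87.9). CYP71B26, a cytochrome P450, had the smallest ratio of all members, 2.50, and the 4 falls of this gene were also nearly equal, at 1.24 to 1.33. Its signals were 881 to 1487 (1129), 925 to 1352 (1111) and 324 to 591 (460). AT1G29660, a GDSL lipase, had 130 to 272 (205), 180 to 314 (266) and 4.09 to 37.1 (11.8). AT1G52800, a 2-oxoglutarate-dependent oxygenase, had 132 to 230 (184), 136 to 229 (184) and 5.99 to 71.0 (28.6). Of 38 tested UDP-glycosyltransferases found by words in their gene symbols, 26 were lower and 4 higher at 2 days. UGT78D1 was the 1 member among them, and AT2G16890, another member of this family, was not found by these words. Of 15 tested genes found by words for cytochromes P450, 5 were lower and 3 higher. Of 20 glycosyl hydrolases found by words, 6 were lower and 10 higher, and each of these lists held 1 member.

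Some members have roles in the nucleus or in stress tolerance. HIS1-3, a linker histone known from drought, had 312 to 909 (median 655), 293 to 1008 (617) and 57.1 to 173 (79.3). Of 11 tested genes found by words for histones it was the 1 that was lower at 2 days, while 5 were higher. AGL19, a MADS-box transcription factor, went from 423 to 640 (489) at 2 hours to 266 to 430 (336) at 8 hours and 28.1 to 151 (60.6) at 2 days. AT3G02480, a late embryogenesis abundant protein, had 97.8 to 976 (288), 43.5 to 444 (141) and 3.53 to 32.2 (11.9). CCL, whose RNA is known for a daily rhythm, had 131 to 492 (314), 164 to 967 (534) and 22.1 to 89.9 (44.5). Of 23 clock genes listed, the annotation paired 2 with a probe set, GI and AT5G52660, and the rest were not followed. These 2 were lower at 2 days than the mean of 2 and 8 hours, by log2 differences of -0.79 ± 0.07 and -0.48 ± 0.08 (SE). Their summed signal was 1095 to 1621 at 2 hours, 1824 to 2753 at 8 hours and 802 to 1224 at 2 days. It was thus highest at 8 hours, and the ranges of 2 hours and 2 days overlapped. The time of day at which roots were taken is not in the labels, and its part was not tested.

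The highest rank among members with 1 listed gene was that of AT1G64370, which encodes a protein of unknown function. Its signals were 3841 to 5438 (median 4763) at 2 hours, 3508 to 5073 (4172) at 8 hours and 113 to 450 (213) at 2 days, a ratio of 18.3. Other members without a role assigned here were AT2G48090, with a ratio of 6.48, AT1G24575 with 11.03, AT3G55790 with 7.21, AT3G18250 with 4.10 and AT2G33850 with 8.16. AT3G55790 was the one among these whose early and late arrays overlapped, with 208 to 1063 (488), 418 to 1165 (765) and 7.37 to 278 (82.5). Its falls were 2.97 and 3.02 in the nitrate treatments and 2.15 and 2.44 in the chloride treatments. The 3 probe sets ranked above AT1G64370 have no gene listed. The probe set ranked first, 245928_s_at, had a ratio of 33.3, and 253505_at had the largest ratio, 38.6.

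**Figure D3:**
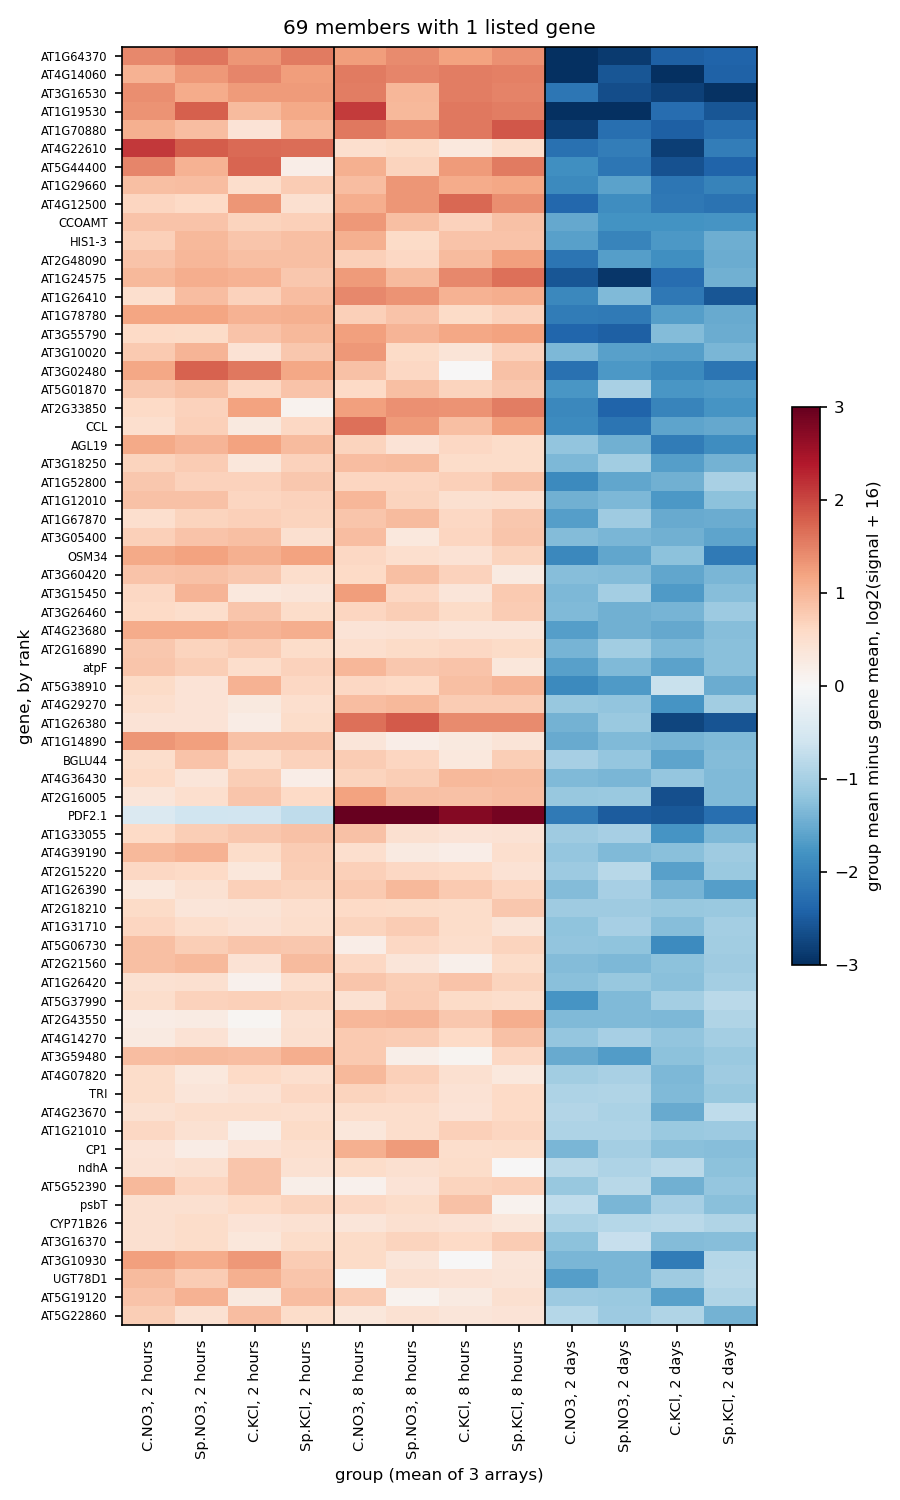
Group mean minus the gene's mean over 12 groups, log2(signal + 16), for the 69 members with 1 listed gene (rows, by rank) in the 12 groups (columns, mean of 3 arrays each). All genes are blue, below their mean, in the 4 columns of 2 days, and PDF2.1 is also below its mean at 2 hours.

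Plastid-encoded genes gave 3 members, atpF of the ATP synthase, ndhA of the NADH dehydrogenase-like complex and psbT of photosystem II. The atpF signals were 446 to 1433 (median 610) at 2 hours, 216 to 1017 (792) at 8 hours and 91.4 to 204 (142) at 2 days. For ndhA they were 699 to 1428 (1062), 339 to 1355 (1022) and 247 to 435 (394), and for psbT 85.6 to 405 (170), 47.8 to 342 (177) and 31.0 to 71.5 (43.7). The early and late arrays of ndhA and psbT overlapped, and those of atpF did not. Of 60 tested genes of the plastid genome 49 were lower and 4 higher at 2 days, with a median of -0.81. Among the 57 that are not members 46 were lower and 4 higher. Over all probe sets 31.8% were lower and 33.4% higher. The 3′–5′ index also differed at 2 days, and its part in the plastid values was not tested. Of 45 genes found by words for photosynthesis, 36 were lower and the other 9 did not pass. Most of the 45 are plastid genes already counted among the 60, so this is not a separate result.

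Members were spread over the genome, with 19, 11, 15, 13 and 8 genes on chromosomes 1 to 5 and 3 in the plastid. Among 66 nuclear members, 6 formed 4 pairs with at most 1 gene between them, namely the run of oxidases on chromosome 1 and AT4G23670 with AT4G23680.

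Between 2 and 8 hours the members had no common direction. The mean difference over treatments had a median of 0.01 on the log2 scale, with 78 members higher and 72 lower at 8 hours. In 106 members it was within 0.5, in 13 it was 1 or more and in 7 it was -1 or less, over a range of -2.23 to 3.53. Limma called 55 of the 150, 29 higher and 26 lower, where 44.9% of all probe sets were called. The rule takes the lower of the 2 early means and so favours probe sets whose early means are close. The genes with the largest early differences were PDF2.1 at 3.53 and AT1G26380 at 1.18 in one direction and AT4G22610 at -1.35 and AT3G02480 at -0.82 in the other. AT3G10930 and AT1G14890, an invertase and pectin methylesterase inhibitor family protein, were lower at 8 hours by log2 differences of -0.78 and -0.76.

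**Figure D4:**
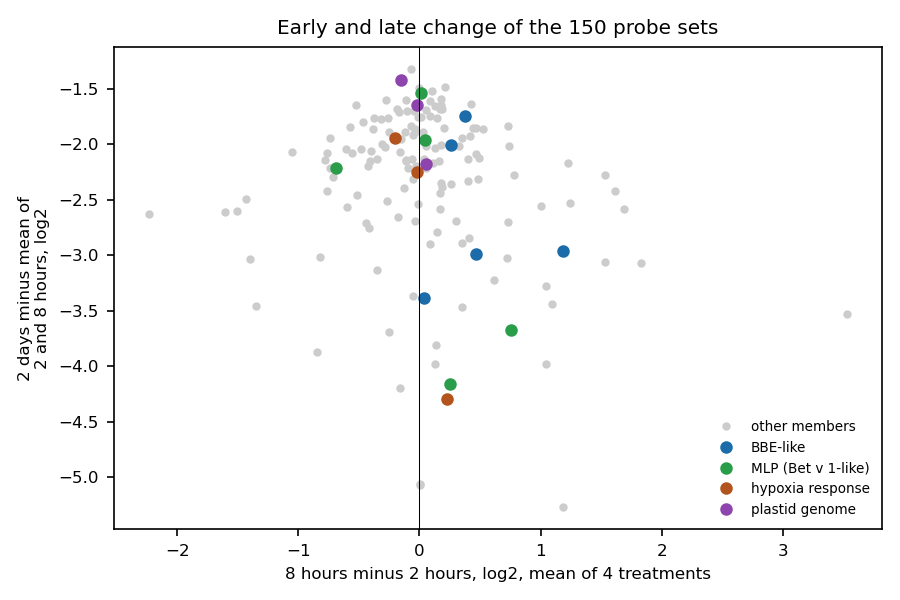
Each of the 150 probe sets by its mean log2 difference between 8 and 2 hours (x) and between 2 days and the mean of 2 and 8 hours (y), with 4 gene groups in colour. The point at 3.53 on the x axis is PDF2.1.

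The 4 falls are given here first as medians over all members and then as gaps within single members. The median fall was 1.93 in C.NO3, 1.84 in Sp.NO3, 2.02 in C.KCl and 1.78 in Sp.KCl. The smallest of the 4 falls lay in Sp.KCl for 52 members, in Sp.NO3 for 45, in C.KCl for 29 and in C.NO3 for 24. The gap between a member's largest and smallest fall had a median of 0.61. AT2G16005, with an MD-2-related lipid recognition domain, had the widest gap among genes with 1 listed gene, with falls of 3.47 in C.KCl, 1.93 in Sp.KCl, 1.62 in Sp.NO3 and 1.51 in C.NO3. AT1G26380 had falls of 2.97 and 3.15 in the chloride treatments and of 1.84 and 1.53 in the nitrate treatments. AT1G19530 went the other way, with 4.85 and 4.06 on nitrate and 3.25 and 3.71 on chloride. Its mean signal at 2 days was 15.7, under the pseudocount of 16, so the order of its falls rests on signals near the floor. Limma called no salt difference in AT1G19530, with or without the block. At the edge of the selection UGT78D1, AT5G19120, an aspartyl protease family protein, and AT5G22860, a serine carboxypeptidase family protein, had smallest falls of 1.22, 1.21 and 1.20. Just outside it, CHI, AT1G26250 and AT5G38900 had 1.19, 1.18 and 1.17.

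The rule did not rank on differences between treatments at one time, and these were tested. It did use the same group means, and asking for a fall in every treatment limits how treatments can differ. The counts of members are therefore not independent of the selection. Where both compartments held the same salt, few members differed between nitrate and chloride at 2 hours and 8 hours, and more did at 2 days. At 2 days limma called 12 of 150, 10 higher and 2 lower on nitrate, where 2.51% of all probe sets were called. AT1G64370 read 113, 154 and 143 on nitrate and 178, 313 and 439 on chloride, without overlap. Its log2 difference was -1.02 ± 0.21 (SE, n = 3 per salt, limma adjusted p = 0.00437), and the call was lost without C.KCl 2 days replicate 3 (adjusted p = 0.0730). AT2G16005 read 1763, 440 and 550 on nitrate against 369, 130 and 362 on chloride, again without overlap. It was higher on nitrate by 1.48 ± 0.39 (limma adjusted p = 0.0303), and the call was lost without C.NO3 replicate 1 (0.334) or C.KCl replicate 2 (0.275). With the KCl groups exchanged its difference was 0.18 (adjusted p = 0.943). For AGL19 the values 151, 64.4 and 74.5 on nitrate overlapped 32.2, 28.1 and 70.4 on chloride. Its difference was 0.91 ± 0.23 (limma adjusted p = 0.0240), lost without C.NO3 replicate 1, C.KCl replicate 1 or C.KCl replicate 2. The AGL19 call was also lost with a pseudocount of 64 (adjusted p = 0.0651), after quantile normalization (0.0829) and with the KCl groups exchanged (0.312). The mean AGL19 signal at 2 days was 67.3, under the filter of 69, which the probe set passed through its early arrays. AT4G29270, an acid phosphatase of the HAD superfamily, read 808, 861 and 837 against 483, 476 and 669. It was higher on nitrate by 0.63 ± 0.17 (limma adjusted p = 0.0422), and leaving out any of these arrays but C.KCl replicate 3 ended the call. So did a pseudocount of 64 (adjusted p = 0.0510), testing without the filter on dim probe sets (0.0575) and quantile normalization (0.0537). The other 8 called probe sets have no gene listed, and among them 261459_at was higher by 1.69 ± 0.33 and 261574_at lower by -1.87 ± 0.29. The count at 2 days was 7 without C.NO3 replicate 1, 6 without C.KCl replicate 1 and 6 without C.KCl replicate 2. It was 7 with a pseudocount of 64, and 2 when C.KCl and Sp.KCl were exchanged.

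Same-numbered repeats of both salts on uniform plates passed the check for pairing at all 3 times. At 2 days they passed narrowly, with correlations of 0.140, 0.111 and 0.124 against a cut of 0.1. The block is shared by all treatments of a time, and the other comparisons at 2 days did not pass. With the replicate number as a block the 2-day count was 32, 26 higher and 6 lower, where 5.54% of all probe sets were called. All 12 unblocked calls were among the 32. AT1G26380, which read 147, 86.5 and 144 on nitrate and 13.4, 40.4 and 85.1 on chloride, was higher by 1.33, with an adjusted p of 0.00317 in the blocked and 0.245 in the unblocked limma fit. AT4G22610, BGLU44 and AT4G23670 were higher in the blocked fit by 0.59, 0.58 and 0.64, as was AT2G15220, a plant basic secretory protein family member, by 0.55. Lower on nitrate in that fit were AT5G37990, a SABATH-type methyltransferase, by a log2 difference of -0.75, and AT5G38910, a germin-like protein, by -1.24. The latter read 103, 253 and 130 on nitrate against 285, 320 and 595 on chloride. AT2G15220 and AT5G38910 were named after their values were seen.

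At the early times the same contrast called 1 member at 2 hours, a probe set with no gene listed, where 2.01% of all were called. Blocked, it called 5 with 7.24% of all, and 2 of these had a gene, AT2G21560 at 0.48 and AT1G21010 at 0.45, both higher on nitrate and named after their values were seen. At 8 hours limma called 0 members (0.385% of all), with 11 at an unadjusted p below 0.05 (9.28% of all), and the blocked fit called 4 (1.83% of all). The hypoxia gene AT3G10020 was 1 of these 4, with 845, 1213 and 944 on nitrate and 305, 840 and 552 on chloride, a difference of 0.90 (blocked limma adjusted p = 0.0156, unblocked 0.327). Over the 3 times limma called 8 members, 6 higher and 2 lower on nitrate (3.34% of all), and none of these has 1 listed gene. The blocked fit called 24, 20 higher and 4 lower (8.48% of all), among them AT3G10020 at 0.52, AT1G12010 at 0.34 and AT4G12500 at -0.51. The 1 call at 2 hours was absent without any 1 array of the contrast except C.NO3 replicate 3, without which there were 2. The members' median difference was 0.12 over the times and 0.13 at 2 days, where that of all probe sets was -0.002 and 0.009, and 101 and 97 of 150 were above 0. On split plates the same medians were 0.01 and 0.007, with 78 and 77 above 0.

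**Figure D5:**
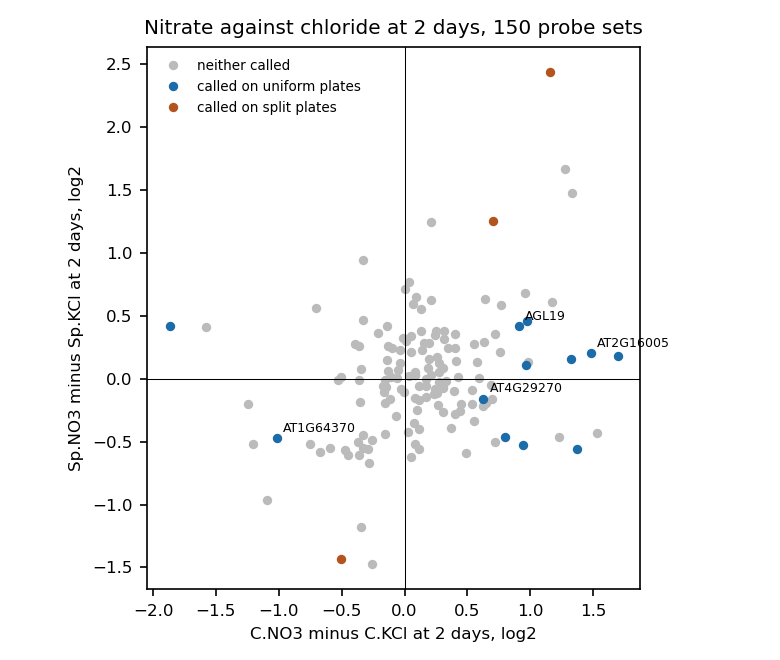
Log2 difference between nitrate and chloride at 2 days on uniform plates (x) and on split plates (y) for the 150 probe sets, coloured by the limma calls without a block. Of the 12 called on uniform plates 10 lie to the right of 0 on x, and of the 3 called on split plates 2 lie above 0 on y.

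On split plates nitrate roots were compared with chloride roots. Both sides belong to the same plants by design, which pairs them, although the labels do not tie a repeat number to plants. At 2 days limma called 3 members, 2 higher and 1 lower on the nitrate side (0.789% of all), none with a listed gene. With the repeat number as a block 9 were called, 6 higher and 3 lower (1.90% of all), the 3 unblocked calls among them, and 4 of the 9 have 1 gene listed. AT1G26380, the oxidase, read 136, 98.2 and 275 on the nitrate side and 59.2, 8.50 and 111 on the chloride side, a difference of 1.48 (limma adjusted p = 0.00244 blocked and 0.355 unblocked). The neighbouring oxidase AT1G26410 read 45.6, 49.1 and 40.1 against 7.93, 2.15 and 22.7, without overlap, a difference of 1.25 (0.00930 and 0.340). Lower on the nitrate side were AT1G24575, with 63.1, 18.02 and 25.3 against 161, 106 and 94.7, by a log2 difference of -1.48 (0.00243 and 0.0514), and AT1G78780, with 88.8, 84.1 and 82.0 against 192, 112 and 120, by -0.61 (0.0235 and 0.0929). The mean signals at 2 days were 26.2 for AT1G26410 and 68.6 for AT1G24575, under the filter of 69. Both probe sets passed that filter through their early arrays. For AT1G26410 the chloride-side readings of 7.93 and 2.15 were under the pseudocount, and 22.7 was above it. Unblocked, the count was 0 without Sp.NO3 replicate 3 and 1 without Sp.KCl replicate 2. The probe set 267565_at was higher by 2.44 ± 0.51 (adjusted p = 0.00923) and 260551_at lower by -1.43 ± 0.32 (adjusted p = 0.0158). Values for the genes called on uniform plates were -0.47 ± 0.21 for AT1G64370, 0.20 ± 0.39 for AT2G16005, 0.42 ± 0.23 for AGL19 and -0.16 ± 0.17 for AT4G29270. The difference between the plates was tested by the interaction of salt with plate, which limma called in 2 members at 2 days (0.305% of all). Neither has a gene listed, and the interaction in these 4 genes had limma adjusted p-values of 0.725, 0.564, 0.794 and 0.270. With the block 8 were called (1.16% of all), among them OSM34 at -1.27 (limma adjusted p = 0.0333 blocked and 0.616 unblocked). The interaction also sets split against uniform plates, whose repeats did not pass the check for pairing at 2 days. Their lowest pair correlation was 0.07 for roots in nitrate and -0.05 for roots in chloride. The blocked OSM34 call is therefore not read as a result. For salt on split plates at 2 hours, limma called 0 members with or without the block (0.143% of all without it and 0.261% with it). There were 2 at an unadjusted p below 0.05 (2.11% of all). At 8 hours 0 were called (0.242% of all), with 4 at an unadjusted p below 0.05 (5.53% of all). In the blocked fit 1 was called there (0.733% of all), CP1, a papain-type cysteine protease, which was named after its values were seen. It read 3172, 1945 and 2813 on the nitrate side and 1443, 1120 and 2317 on the chloride side, a difference of 0.73. Over the 3 times 1 member was called (1.15% of all), and 8 with the block (2.27% of all). The interaction over the times called 0 (0.112% of all), with 17 at an unadjusted p below 0.05 (10.2% of all) and 3 in the blocked fit (0.827% of all).

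Roots in the same salt were compared between split and uniform plates to ask whether the other compartment mattered. On the nitrate side limma called 0 members as the mean of the times and at each single time. In the order all times, 2 hours, 8 hours and 2 days, 0.00621%, 0%, 0% and 0.00621% of all probe sets were called. At an unadjusted p below 0.05 the members counted 7, 0, 6 and 10 in that order, where all probe sets gave 5.37%, 1.59%, 7.45% and 3.91%, and the blocked fit also called 0. The members' differences at 2 days on this side ranged from -0.81 to 1.33. On the chloride side limma called 7 at 2 days, 6 higher and 1 lower on split plates (0.932% of all). AT4G29270 read 992, 1069 and 683 on split against 483, 476 and 669 on uniform plates. Its difference was 0.73 ± 0.17 (limma adjusted p = 0.0273). AT4G23670, the major latex protein, read 5971, 5888 and 3575 against 3078, 2369 and 3498, a difference of 0.76 ± 0.19 (limma adjusted p = 0.0421). The lowest split array of each gene lay just above the highest uniform array. The AT4G23670 call ended without the filter on dim probe sets (adjusted p = 0.0670) and after quantile normalization (0.0768). Both calls ended without C.KCl replicate 1 or 2 or Sp.KCl replicate 1 or 2, and the count of 7 was then 4, 4, 3 and 4, and 11 without Sp.KCl replicate 3. When the KCl groups were exchanged both differences reversed, to -0.73 and -0.76, and AT4G29270 on uniform plates went to -0.10. At 2 hours 0 members were called (0.336% of all) with 13 at an unadjusted p below 0.05 (13.0% of all), and at 8 hours 0 (0% of all) with 1 (2.06% of all). The blocked fit also called 0 at these times. Over the times 2 members were called, both higher on split plates and without a listed gene (0.218% of all). Members differed on this side at 2 days by a median of 0.20, with 108 of 150 above 0, against -0.02 in all probe sets. The sign of this difference rests on the KCl titles, since it reverses when the KCl groups are exchanged. The C.KCl arrays of 2 days serve both this comparison and that of salts on uniform plates, so the 2 are not independent.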

How the data were processed

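RNA of 36 root samples was measured on single-colour Affymetrix arrays. The authors deposited linear intensity values made with MAS5, per the submitters' processing notes, which give no version. The mean of each array after trimming 2% at each end came to 500 in the deposited values. Further steps by the authors were not given in the sources used here. Of 22810 probe sets, 64 controls were left out, and 16091 with a mean signal of 69 or more were ranked and tested. Signals were used as log2(signal + 16) without further normalization. Limma 3.58.1 in R 4.3.3 fitted 12 group means to 36 arrays, with an intensity trend. It left 24 residual degrees of freedom, to which the prior added 7.08 at the median. Two-sided p-values were adjusted by Benjamini-Hochberg over 16091 probe sets within each contrast, with a threshold of 0.05, and the fit was tested on simulated data. With 3 arrays per group, their number sets the precision. Differences are means of log2 values with their standard error (SE), and signal ranges cover the 12 arrays of a time.

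Same-numbered repeats counted as paired where every pair's deviations from the group means correlated above 0.1, which held for 8 of 12 comparisons. The block leaves 18 residual degrees of freedom. Members, gene lists and markers were chosen with earlier results of these data known. Members with 1 listed gene were named if among the 25 of highest rank, up to 4 per gene list, up to 6 called per contrast, the 3 on either side of the selection's edge, the 5 at each end for the difference between 8 and 2 hours and for mean signal, or the 5 with the widest gap between falls. Exceptions are marked, and the probe sets given by number and the genes outside the 150 were picked after their values were seen. Lists of major latex proteins, berberine bridge enzyme-like oxidases, hypoxia genes and the plastid genome were counted without a set test. So were lists by words in symbols or their synonyms, of defence proteins, UDP-glycosyltransferases, cytochromes P450, glycosyl hydrolases, histones, photosynthesis and peroxidases. Such words can also match genes of other families, and the lists by words were not checked for this. Gene names came from the platform annotation and from RefSeq (TAIR10.1). Alternatives were pseudocounts of 1 and 64, other filters, quantile normalization, the block, exchanged KCl groups, the 3′–5′ index as a covariate, the methods' test (model p of 0.001 with Tukey p of 0.05) and leaving out each array. The index and 1 filter were added after seeing the data.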

Additional observations from a re-analysis of the deposited data

Results flagged for a closer look

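In 2 members the difference between nitrate and chloride depended on the plate at 2 days, by the interaction term of the limma fit. Neither has a gene listed. The probe set 251780_s_at had an interaction of 1.26 on the log2 scale (limma adjusted p = 0.0115). Its signals at 2 days were 298, 293 and 274 in C.NO3, 225, 271 and 202 in Sp.NO3, 164, 148 and 165 in C.KCl and 316, 375 and 287 in Sp.KCl, so C.KCl lay below the other groups. The probe set 261574_at had an interaction of -2.29 (limma adjusted p = 0.00475). It read 91.1, 235 and 252 in C.NO3, 349, 201 and 319 in Sp.NO3, 568, 604 and 954 in C.KCl and 320, 171 and 161 in Sp.KCl, so C.KCl lay above the others. Both rest on the reading of the KCl titles, and with the KCl groups exchanged 0 members had a called interaction at 2 days.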

How the results depend on the processing

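Between 120 and 149 of the 150 members stayed under other pseudocounts, filters, normalization and ways of summarising replicates or early times, and 126 to 132 when 1 replicate number was left out of all groups. The median difference at 2 days was -2.43 with a pseudocount of 1, -1.83 with 64, -2.04 after quantile normalization and -1.94 with the 3′–5′ index. With a pseudocount of 1 limma called 6 members for salt on split plates and 4 for the interaction, both at 2 days. A pseudocount of 64 gave 7 for salt on uniform plates at 2 days (401 of all). It gave 2 for salt on split plates over the times (187 of all) and 1 on the chloride side over the times (32 of all). Without the filter the counts were 0 for salt on uniform plates at 2 hours, 0 on split plates over the times and 1 on the chloride side over the times, and quantile normalization gave 2 for salt on split plates over the times. With the replicate block, salt on uniform plates called 32 at 2 days, 5 at 2 hours, 4 at 8 hours and 24 over the times. Salt on split plates called 8 over the times, 1 at 8 hours and 9 at 2 days in that fit. The chloride side called 10 over the times (1.71% of all probe sets) and 19 at 2 days (2.55%), and the interaction 3 over the times and 8 at 2 days. Repeats between plates on the chloride side at 2 days share only a number (lowest pair correlation -0.05), and on split plates at 2 days, where the design pairs the sides, the lowest was 0.08. The block moved no other count by more than 1.5 times. With the KCl groups exchanged, salt on uniform plates called 1 over the times, 0 at 2 hours and 2 at 2 days, salt on split plates 4 over the times and 9 at 2 days, and the interaction 0 at 2 days. AT4G29270 reversed to -0.10 for salt on uniform plates and to -0.73 on the chloride side, and AT4G23670 to -0.76. The index gave 0 for salt on uniform plates at 2 hours, and 5 over the times and 11 at 2 days on the chloride side. The methods' test called 3 for salt on split plates and 9 on the chloride side over the times. For the filter, quantile normalization, the exchange, the index and the methods' test, counts over all probe sets are not given here. Their counts of members are therefore not read as results about the members. The same holds for counts after leaving out an array.

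Leaving out 1 array gave, for salt on uniform plates, 6 to 11 at 2 days, 0 to 2 at 2 hours, 0 to 1 at 8 hours (1 without C.KCl replicate 2) and 6 to 10 over the times. For salt on split plates the ranges were 0 to 2 over the times and 0 to 4 at 2 days. On the chloride side they were 0 to 5 over the times and 3 to 11 at 2 days, and for the interaction 0 to 1 over the times and 1 to 4 at 2 days. The chloride-side count of 2 over the times became 0 without C.KCl 2 hours replicates 1 or 2, C.KCl 8 hours replicates 1 or 3 or C.KCl 2 days replicates 1 or 2, and 0 as well without replicate 2 of Sp.KCl at any time or replicate 1 of Sp.KCl at 2 days. It was 5 without Sp.KCl 2 days replicate 3, and 1 without Sp.KCl 2 hours replicates 1 or 3, C.KCl 8 hours replicate 2 or Sp.KCl 8 hours replicate 1. The 1 member called for salt on split plates over the times was not called without Sp.NO3 2 hours replicate 1, Sp.NO3 8 hours replicate 1, Sp.NO3 2 days replicate 3, Sp.KCl 2 hours replicate 2, any of the Sp.KCl 8 hours arrays or Sp.KCl 2 days replicates 1 or 2. The interaction count at 2 days was 4 without C.KCl replicate 3, and it was 1 without Sp.KCl replicate 2 and also 1 without Sp.NO3 replicate 3. The cause of these changes was not tested. No detection calls were used, so a signal near 0 on a dim probe set has no order, and 12 members had a mean below 16 at 2 days.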

Other observations

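Further members cover other functions, and all but AT5G06730, AT3G05400, AT3G60420 and AT5G52390 were named after their values were seen. AT5G06730 and AT4G36430, both class III peroxidases that use hydrogen peroxide in the cell wall, had early-to-late ratios of 3.99 and 3.86, with falls of 1.40 to 2.42 and 1.52 to 1.92 over the treatments. Of 8 tested genes found by words for peroxidases, which included neither of them, 1 was lower and 3 were higher at 2 days. The median log2 difference of those 8 was 0.03. AT3G05400, a sugar transporter-like protein, had signals of 56.8 to 164 (median 101) at 2 hours, 31.9 to 150 (108) at 8 hours and 4.13 to 33.2 (7.08) at 2 days, so that 1 of its early arrays reached the late range. AT3G15450, of the aluminium-induced protein family, varied between repeats, with 1676 to 7612 (3748), 1713 to 6888 (4885) and 478 to 2858 (946), and its early and late arrays overlapped. AT3G16370, a GDSL lipase like AT1G29660, had a ratio of 3.21. AT1G31710, a copper amine oxidase, had 415 to 842 (481), 260 to 716 (574) and 106 to 205 (163), and AT2G16890, a UDP-glycosyltransferase, had 364 to 1005 (523), 412 to 737 (528) and 97.1 to 234 (139). AT4G07820, of the family of pathogenesis-related protein 1, had a ratio of 3.16 with falls of 1.29 to 1.82. AT3G60420 and AT5G52390 were dim, with 48.3 to 237 (94.3), 37.0 to 202 (80.4) and 4.98 to 27.0 (7.35) for the former and 80.8 to 295 (122), 61.5 to 249 (130) and 3.99 to 51.8 (42.3) for the latter, and in both the early and late arrays did not overlap.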
